A study of Rattus norvegicus with 10 samples.

Results

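The 10 genes described here are those of the urea cycle, of glutamine synthesis and breakdown, and of glutamate transport in rat liver: Cps1, Otc, Ass1, Asl, Arg1, Glul, Gls2, Oat, Slc1a2 and Slc1a3. They were chosen by name. The array measured all 10 with 17 of the 31042 probe sets tested. The whole array measured 14217 genes. A probe set is a group of short probes for 1 transcript, and 1 gene can have several.

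Hepatic gene expression was compared between the iron-deficient group and the pair-fed group, 5 male Sprague-Dawley rats each. They were 5 weeks of age by the labels, and the abstract of the study gives a lower age for the rats fed the diet. The iron-deficient group ate a diet with about 3 ppm iron for 3 days, and the pair-fed group ate the same diet with 48 ppm iron in the amount that the iron-deficient group took. Every liver was taken 1.5 h after feeding by the methods, where the labels can be read as 1.5 h of feeding, and each was hybridised to 1 Affymetrix Rat Genome 230 2.0 array. The source field of the control samples also names the iron-deficient diet, and the rats were grouped by title and treatment. Iron intake was lowered for these days only, and no liver cell type was isolated. The replicates are separate rats.

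The urea cycle turns toxic ammonia into urea in hepatocytes around the portal vein. Ammonia that escapes it is captured around the central vein, where a thin layer of hepatocytes takes up glutamate and makes glutamine from it. Glutaminase releases ammonia from glutamine again near the portal vein, so that both ends of the lobule are linked through these amino acids. The source is whole liver, in which fewer cells of a type and less RNA per cell cannot be told apart.

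Iron deficiency came with down-regulation of 3 of the 10 genes, all 3 of them genes of the glutamine and glutamate side: Glul, Slc1a2 and Slc1a3. The 5 enzymes of the urea cycle, Gls2 and Oat did not pass the test in either direction. The study itself had named Glul, Slc1a2 and Slc1a3 from these arrays, so that their count is not independent evidence. A probe set passed when the rank products, which rank the differences of every iron-deficient array from every pair-fed array (25 pairs), gave a false discovery rate (FDR) under 0.05. By this test 4 of the 17 probe sets were down-regulated, against 174 of 31042 on the array (0.561%). None was up-regulated, against 87 on the array (0.280%). By gene, 3 of 10 had a down-regulated probe set, against 123 of 14217 (0.865%).

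The second measure was limma, which gives the log2 fold change (iron-deficient minus pair-fed), its standard error (SE) and a p adjusted over all probe sets. Unlike the rank products, it weighs the spread between rats. limma passed 0 probe sets of the array at an adjusted p under 0.05, and the members had adjusted p-values between 0.494 and 0.991. Without adjustment, 2168 probe sets had a p under 0.05 in either direction. Of the 17 member probe sets, 4 had an unadjusted p under 0.05 and a lower mean in the iron-deficient group, against 3.77% of the array. These were Glul 1386870_at, 1367633_at and 1367632_at, which read the same gene, and Slc1a2 1369693_a_at. Slc1a3 1368565_at, which passed the rank products, was not among them (unadjusted p = 0.192 by limma). In 1 of the 17, every iron-deficient rat lay below every pair-fed rat, against 0.799% of the array. The median log2 fold change of the 10 genes at their brightest probe sets was 0.04, and it was -0.01 over all genes.

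The array medians ran from 6.19 to 6.22 on the log2 scale. The normalization of the deposited values makes them alike, so they are no sign of quality. Markers of hepatocytes (Alb, Apoa1, Apob, Ttr, Serpina1) were all bright, and 0 of 5 passed the test. They were higher in the iron-deficient group in 5 of 5, with a median log2 fold change of 0.06. Their sums were 17.08 to 17.11 in iron-deficient livers and 17.04 to 17.09 in pair-fed livers. Erythroid markers were lower in the iron-deficient group: 6 of 6 measured were down-regulated, with a median log2 fold change of -1.02. Their summed log2 level ran from 13.33 to 14.14 in iron-deficient livers and from 13.92 to 14.62 in pair-fed livers. Of the markers of Kupffer cells and leukocytes (6), endothelium (4), stellate cells (5) and cholangiocytes (4), 0 passed. The stellate cell markers were higher in 4 of 5, with Des lower at -0.06. Their summed level ran from 12.62 to 13.21 in iron-deficient livers and from 12.40 to 12.63 in pair-fed livers. All these sums add unlogged signals, so that the brightest marker weighs most. In the stellate sum this is Col3a1, which averaged 12.34 in iron-deficient livers and 12.03 in pair-fed livers. The endothelial markers were higher in 4 of 4, with sums of 12.40 to 12.48 in iron-deficient livers and 12.26 to 12.40 in pair-fed livers. The Kupffer cell and leukocyte markers were lower in 6 of 6, with sums of 11.54 to 11.77 in iron-deficient livers and 11.56 to 12.25 in pair-fed livers. The part of these markers in the results was not tested. The 3' minus 5' difference of the GAPDH control, a sign of RNA quality, was 0.10 ± 0.16 in iron-deficient livers and 0.01 ± 0.07 in pair-fed livers (SD, n = 5 each, exact permutation p = 0.341). That of beta-actin was 1.34 ± 0.23 in iron-deficient livers and 1.20 ± 0.10 in pair-fed livers (exact permutation p = 0.230), and rat 1 of the iron-deficient group was highest for both (0.36 and 1.74) and had the lowest mean correlation with the other arrays (0.9915).

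Promoter windows are shown for the down-regulated genes and for 2 urea cycle genes, because Glul and Slc1a2 are known as pericentral genes and Cps1 and Otc as periportal genes. Each window holds the 250 bases before a RefSeq start, on the strand of the gene, in the rat build GRCr8. Capitals mark matches to any of 7 motifs searched on both strands, and matches of different motifs may overlap. The windows lie at chr13:68519250-68519499 (+) for the first Glul start, chr13:68575816-68576065 (+) for its second start, chr3:109459859-109460108 (+) for the first Slc1a2 start, chr3:109507697-109507946 (+) for its second start, chr2:59557809-59558058 (-) for Slc1a3, chr9:76063613-76063862 (+) for Cps1 and chrX:15202474-15202723 (-) for Otc.
Glul, first start: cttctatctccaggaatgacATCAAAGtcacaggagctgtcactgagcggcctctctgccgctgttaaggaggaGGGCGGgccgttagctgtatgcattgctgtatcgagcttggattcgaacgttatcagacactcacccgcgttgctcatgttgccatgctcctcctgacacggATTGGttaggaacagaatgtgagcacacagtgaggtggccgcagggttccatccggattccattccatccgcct
Glul, second start: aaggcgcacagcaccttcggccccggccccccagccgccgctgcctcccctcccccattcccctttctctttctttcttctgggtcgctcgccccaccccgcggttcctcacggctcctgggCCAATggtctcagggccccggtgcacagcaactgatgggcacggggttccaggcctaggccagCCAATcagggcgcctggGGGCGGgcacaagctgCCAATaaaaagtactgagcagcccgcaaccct
Slc1a2, first start: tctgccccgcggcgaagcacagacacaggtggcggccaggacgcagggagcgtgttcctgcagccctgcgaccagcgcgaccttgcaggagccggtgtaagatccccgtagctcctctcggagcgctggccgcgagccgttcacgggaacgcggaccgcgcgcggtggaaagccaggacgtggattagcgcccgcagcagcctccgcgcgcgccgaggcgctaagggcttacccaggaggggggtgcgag
Slc1a2, second start: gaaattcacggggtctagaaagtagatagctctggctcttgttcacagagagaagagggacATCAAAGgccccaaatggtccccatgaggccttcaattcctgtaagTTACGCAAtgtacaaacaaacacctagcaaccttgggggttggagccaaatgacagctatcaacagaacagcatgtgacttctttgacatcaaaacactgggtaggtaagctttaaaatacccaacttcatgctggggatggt
Slc1a3, first start: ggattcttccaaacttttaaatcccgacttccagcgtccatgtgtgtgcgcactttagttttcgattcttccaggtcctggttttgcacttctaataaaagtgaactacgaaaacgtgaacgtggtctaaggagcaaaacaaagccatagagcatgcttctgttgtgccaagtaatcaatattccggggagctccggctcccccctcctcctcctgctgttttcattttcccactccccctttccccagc
Cps1: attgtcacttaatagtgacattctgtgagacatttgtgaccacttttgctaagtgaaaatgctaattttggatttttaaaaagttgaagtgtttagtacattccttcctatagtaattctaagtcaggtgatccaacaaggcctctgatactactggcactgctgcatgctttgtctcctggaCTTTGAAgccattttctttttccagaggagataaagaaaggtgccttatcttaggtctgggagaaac
Otc: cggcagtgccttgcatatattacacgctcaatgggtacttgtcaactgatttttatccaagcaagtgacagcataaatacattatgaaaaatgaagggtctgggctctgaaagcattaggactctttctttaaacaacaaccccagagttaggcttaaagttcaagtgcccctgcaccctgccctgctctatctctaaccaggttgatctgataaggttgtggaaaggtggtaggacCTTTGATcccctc

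The letters CTTTGAA or CTTTGAT, which TCF/LEF factors of the Wnt pathway can bind, stood in 4 of the 14 windows of 9 members, and in 7.58% of 33360 windows of the genome. Wnt signals are known to set the pericentral program to which Glul belongs. These 4 windows belong to Glul (first start), Slc1a2 (second start), Cps1 and Otc, of which Glul and Slc1a2 were down-regulated and Cps1 and Otc did not pass. All 4 are printed above, whereas the windows of Ass1, Asl, Gls2 and Oat, which lack these letters, are not. In Glul the match began 230 bases before the start, in Slc1a2 189, in Cps1 67 and in Otc 13. The second Glul window held the CCAAT box (CCAAT) 3 times and the GC box (GGGCGG) 1 time, and these motifs stood in 34.0% and 30.5% of all windows. The C/EBP letters TTGCNNAA stood in the second Slc1a2 window and in 9.20% of all windows. No motif was found in the first Slc1a2 window, which ends just before the gene, or in any of the 3 Slc1a3 windows. The amino acid response letters TGATGNAA stood in none of the member windows and in 3.41% of all windows, the TATA box TATAAA only in that of Ass1 (12.9%), and the cAMP response core TGACG only in that of Gls2 (18.2%). Arg1 had no window here. A match is a description of letters and not a binding site.

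**Figure D1:**
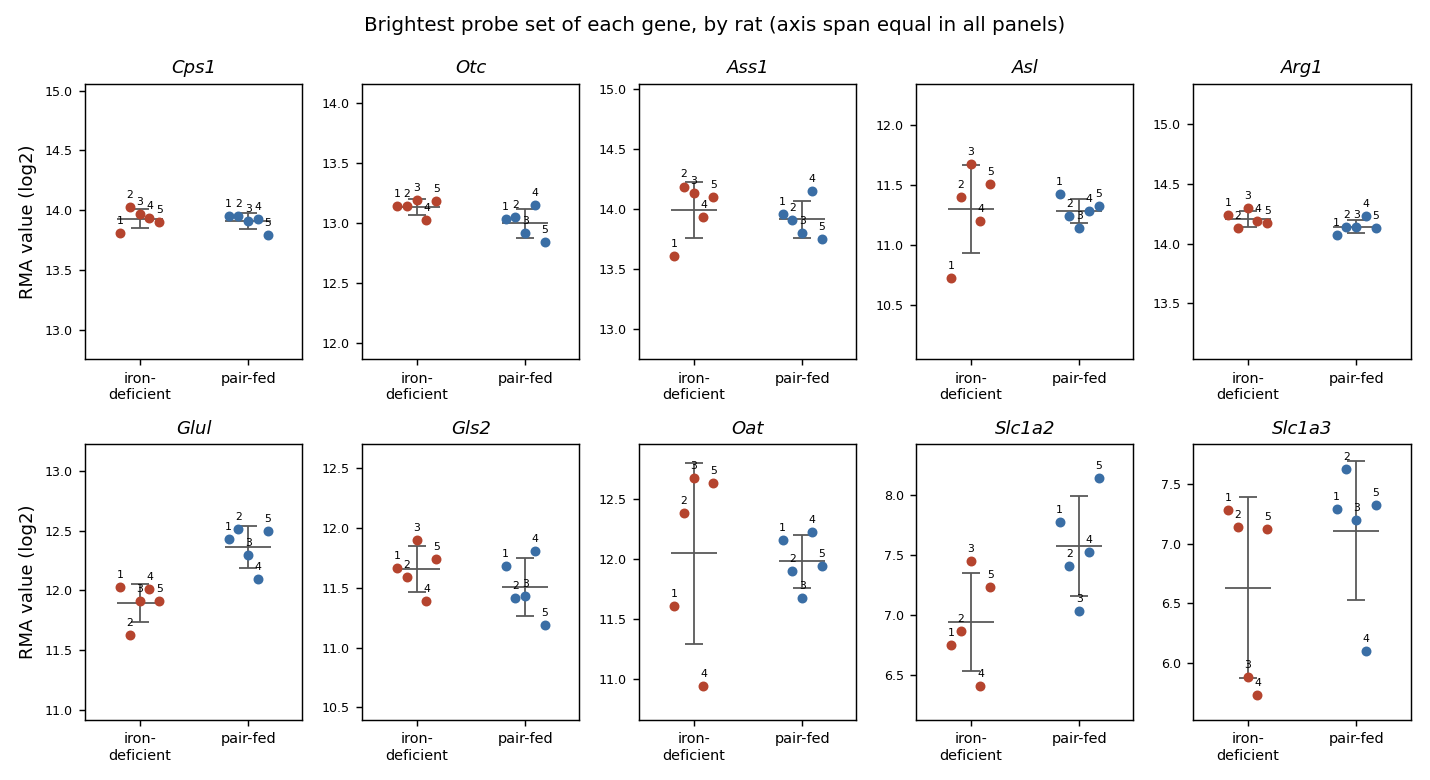
Log2 RMA signal of the member genes in each rat, at the brightest probe set of each gene, with iron-deficient rats left of pair-fed rats. Numbers are the rats, bars are the mean and SD (n = 5), and the span of the axis is equal in all panels. Glul, Slc1a2 and Slc1a3 were lower in the iron-deficient group, and Oat and Asl were more spread there.

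Glul encodes glutamine synthetase, which joins ammonia to glutamate. It lies on chromosome 13 (68519500 to 68585554, GRCr8). Its brightest probe set (1386870_at) read 12.03, 11.63, 11.91, 12.01 and 11.91 in iron-deficient livers, against 12.43, 12.51, 12.30, 12.09 and 12.50 in pair-fed livers. The groups did not overlap, and the highest iron-deficient rat (12.03) lay just below the lowest pair-fed rat (12.09). The mean was 11.90 ± 0.16 in the iron-deficient group and 12.37 ± 0.17 in the pair-fed group (SD, n = 5 each). The log2 fold change was -0.47 (SE 0.098, 95% interval -0.68 to -0.25), a level 0.723 times that of the pair-fed group. The rank products gave an FDR of 0.0252, and the exact permutation test, 2-sided, gave p = 0.00794, the smallest that 5 against 5 can give. The adjusted p of limma was 0.494.

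A further Glul probe set, 1367633_at, also passed. It read 10.97, 10.58, 11.02, 11.19 and 10.99 in iron-deficient livers, against 11.49, 11.69, 11.40, 11.07 and 11.73 in pair-fed livers. Here 4 of 5 iron-deficient rats lay below every pair-fed rat, and rat 4 of each group crossed. The log2 fold change was -0.53 (SE 0.134, 95% interval -0.82 to -0.24), with an FDR of 0.0153, and the exact permutation p = 0.0159. The third probe set, 1367632_at, read 12.14, 11.71, 11.65, 11.99 and 11.72 in iron-deficient livers, against 12.28, 12.20, 12.04, 11.81 and 12.14 in pair-fed livers. The groups overlapped more widely, since pair-fed rat 4 was low and iron-deficient rat 1 high. Its log2 fold change was -0.25 (SE 0.111, 95% interval -0.49 to -0.01) and it did not pass, with an FDR of 0.414 and an exact permutation p = 0.0714. Over the 10 arrays the first probe set correlated with the second at r = 0.98 and with the third at r = 0.83. The 3 probe sets read the same gene and are not replicates.

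Slc1a2 encodes the glutamate transporter GLT-1, known from astrocytes and from pericentral hepatocytes. It lies on chromosome 3 (109460109 to 109590445). Its probe set 1369693_a_at read 6.75, 6.87, 7.45, 6.41 and 7.24 in iron-deficient livers, against 7.77, 7.41, 7.03, 7.53 and 8.14 in pair-fed livers. All 5 iron-deficient rats lay below the pair-fed median and 3 of them below every pair-fed rat, and the groups overlapped between rats 3 and 5 of the iron-deficient group and rats 2 and 3 of the pair-fed group. The mean was 6.94 ± 0.41 in the iron-deficient group and 7.58 ± 0.41 in the pair-fed group (SD, n = 5 each). The difference on the log2 scale was -0.64 (SE 0.215, 95% interval -1.10 to -0.17). This is the lowest log2 fold change of the 17 member probe sets, at 0.644 times the pair-fed level. It passed at an FDR of 0.00673, with an exact permutation p = 0.0476 and an adjusted p of 0.623 by limma. The other probe set, 1369694_at, was dim, among the lowest 9.22% of the array by mean level, and differed by 0.04 (SE 0.066).

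Slc1a3 encodes GLAST, another sodium-driven glutamate transporter. It lies on chromosome 2 (59482707 to 59557808). Its brightest probe set (1368565_at) read 7.28, 7.14, 5.89, 5.73 and 7.12 in iron-deficient livers, against 7.29, 7.62, 7.20, 6.11 and 7.32 in pair-fed livers. The difference came with 3 low rats, rats 3 and 4 of the iron-deficient group and rat 4 of the pair-fed group, while the other 7 lay between 7.12 and 7.62. The log2 fold change was -0.48 (SE 0.346) with an FDR of 0.0421. Its 95% interval, -1.23 to 0.27, held 0, and the exact permutation p = 0.183. The difference of the group medians was -0.17. The rank products lost the call under the replicate block, which treats rats of the same number as pairs, and when probe sets with a mean under 6 were removed. In limma the same block gave a smaller SE, 0.167, and an unadjusted p of 0.0207 (adjusted 0.711). A further probe set, 1388064_a_at, correlated with 1368565_at at r = 0.93 over the 10 arrays. It differed by -0.16 (SE 0.141), which did not pass. The third, 1371130_at, lay in the lowest 4.73% of the array and differed by -0.03 (SE 0.075). Of 4 measured glial markers 0 passed, and Gfap, Aqp4 and S100b had means under 6 in both groups. Mbp averaged 7.79 ± 0.35 in the iron-deficient group and 7.90 ± 0.46 in the pair-fed group (SD, n = 5 each) at its brightest probe set. Its other probe sets had means under 6 in both groups.

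**Figure D2:**
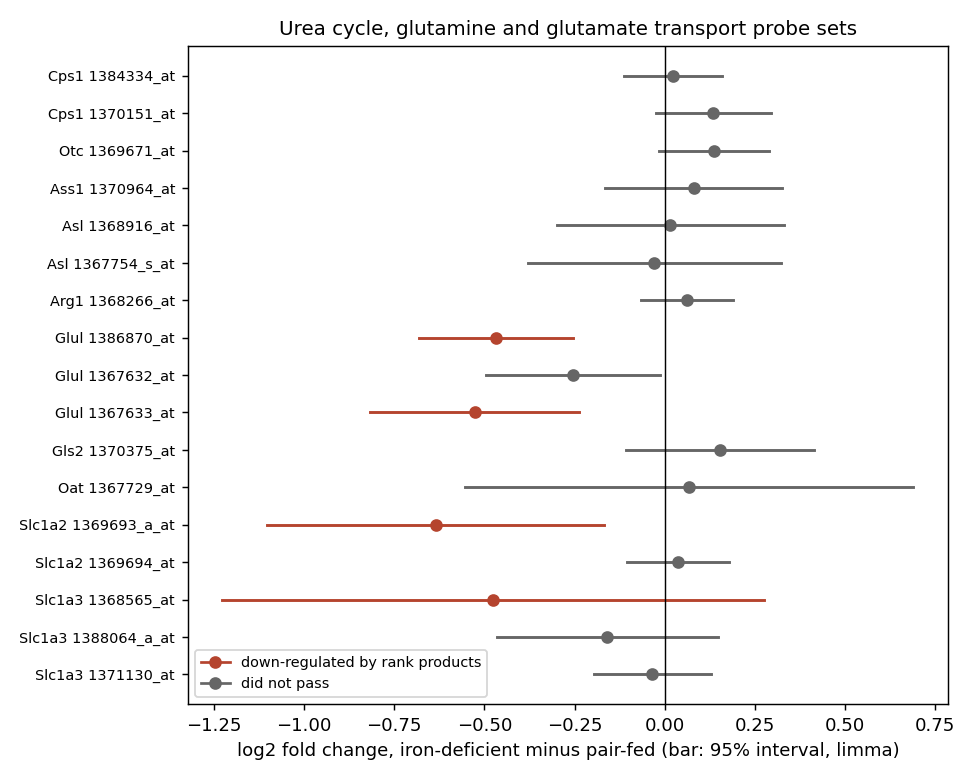
Log2 fold change (iron-deficient minus pair-fed) of the 17 member probe sets, with the 95% interval of limma as bars (n = 5 each). The 4 down-regulated probe sets lie between -0.64 and -0.47, and the interval of Slc1a3 crosses 0.

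No probe set of the 5 urea cycle enzymes passed, and their log2 fold changes lay between -0.03 and 0.14. Equality of the groups was not tested. Cps1, which makes carbamoyl phosphate from ammonia at the entry of the cycle, read 13.81, 14.02, 13.97, 13.94 and 13.90 in iron-deficient livers, against 13.95, 13.95, 13.91, 13.93 and 13.79 in pair-fed livers (1384334_at). The groups overlapped throughout, and the log2 fold change was 0.02 (SE 0.062, 95% interval -0.11 to 0.16). Its other probe set, 1370151_at, read 13.60, 13.44, 13.71, 13.45 and 13.44 in iron-deficient livers, against 13.36, 13.41, 13.29, 13.53 and 13.37 in pair-fed livers. Pair-fed rat 4 lay among the iron-deficient rats and the other pair-fed rats below all of them, and the log2 fold change was 0.13 (SE 0.073, 95% interval -0.02 to 0.29, exact permutation p = 0.0873). The 2 Cps1 probe sets did not follow each other over the 10 arrays (r = 0.06).

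Otc, which joins carbamoyl phosphate to ornithine, averaged 13.13 ± 0.07 in the iron-deficient group and 13.00 ± 0.12 in the pair-fed group (SD, n = 5 each). It differed by 0.14 (SE 0.070, 95% interval -0.02 to 0.29, exact permutation p = 0.0794). Ass1, which makes argininosuccinate, averaged 13.99 ± 0.24 in the iron-deficient group and 13.91 ± 0.16 in the pair-fed group, and differed by 0.08 (SE 0.113, 95% interval -0.17 to 0.33). The Ass1 values overlapped, and iron-deficient rat 1 (13.61) was the lowest of all. Arg1, which splits arginine into urea and ornithine, averaged 14.20 ± 0.07 in the iron-deficient group and 14.14 ± 0.06 in the pair-fed group, and differed by 0.06 (SE 0.058, 95% interval -0.07 to 0.19).

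Asl, which splits argininosuccinate into arginine and fumarate, had an unequal spread. It read 10.72, 11.40, 11.67, 11.19 and 11.50 in iron-deficient livers, against 11.42, 11.24, 11.14, 11.28 and 11.33 in pair-fed livers (1368916_at). Iron-deficient rats lay both below and above the whole pair-fed range, and the SD in the iron-deficient group was 3.56 times that in the pair-fed group. Without iron-deficient rat 1, the rat with the highest 3' minus 5' values, the ratio was 1.94. The log2 fold change was 0.02 (SE 0.145, 95% interval -0.30 to 0.33). The second Asl probe set, 1367754_s_at, followed the first at r = 0.99, although its accession belongs to another gene, Hnrnpab, in RefSeq. Its log2 fold change was -0.03 (SE 0.162).

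Gls2, the liver glutaminase, averaged 11.66 ± 0.19 in the iron-deficient group and 11.50 ± 0.24 in the pair-fed group, and differed by 0.15 (SE 0.121, 95% interval -0.11 to 0.42). Oat moves the amino group of ornithine and feeds glutamate in pericentral cells, where it accompanies Glul. It read 11.61, 12.38, 12.68, 10.94 and 12.64 in iron-deficient livers, against 12.16, 11.90, 11.68, 12.23 and 11.94 in pair-fed livers. In the iron-deficient group 2 rats lay below and 3 above the whole pair-fed range, and the SD was 3.43 times that of the pair-fed group, or 2.25 times without iron-deficient rat 4. The log2 fold change was 0.07 (SE 0.286, 95% interval -0.55 to 0.69), an interval that holds changes in both directions, and the difference of the group medians was 0.44. Over all probe sets the median ratio of the SD was 1.22, and 63.3% had the larger SD in the iron-deficient group. Of the member probe sets, 12 of 17 did.

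The rats did not vary as 1 block over the members. At the brightest probe sets, iron-deficient rat 3 was the highest of its group for 6 genes (Otc, Asl, Arg1, Gls2, Oat and Slc1a2), and rat 4 was the lowest for 5 (Otc, Gls2, Oat, Slc1a2 and Slc1a3). Pair-fed rat 4 was the highest of its group for Otc, Ass1, Arg1, Gls2 and Oat and the lowest for Glul and Slc1a3. After the group means were removed, 0 of 45 pairs of members correlated at an adjusted p under 0.05, by Pearson or by Spearman, and 7 had an unadjusted Pearson p under 0.05. The closest pair by r was Otc and Gls2 (r = 0.88, permutation p = 0.00354, adjusted 0.159, rho = 0.79, permutation p = 0.0197, adjusted 0.134), with r = 0.73 without the 2 farthest arrays. By rho it was Asl and Oat (rho = 0.90, permutation p = 0.00597, adjusted 0.134, r = 0.69, permutation p = 0.115, adjusted 0.412), with r = 0.79 without the 2 farthest arrays. Next by r were Ass1 and Asl (r = 0.79, permutation p = 0.0242, adjusted 0.182, rho = 0.64, permutation p = 0.0669, adjusted 0.251), with r = 0.70 without the 2 farthest arrays. Cps1 and Ass1 had r = 0.77 (permutation p = 0.0185, adjusted 0.166, rho = 0.66, permutation p = 0.0599, adjusted 0.245), but r = 0.35 without the 2 farthest arrays. Of the pairs with a down-regulated member, Oat and Slc1a2 had the highest r, 0.72 (permutation p = 0.0131, adjusted 0.166, rho = 0.73, permutation p = 0.0196, adjusted 0.134), and r = 0.51 without the 2 farthest arrays. Glul did not follow Slc1a2 (r = 0.11, permutation p = 0.770) or Slc1a3 (r = 0.25, permutation p = 0.533), nor Slc1a2 follow Slc1a3 (r = 0.07, permutation p = 0.861). The points share the array and its normalization.

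Genes whose rat-to-rat deviations were most like those of a down-regulated member were sought among 20826 probe sets paired with 1 gene, over the 10 arrays. For Glul they were Srpx (r = 0.97), Znhit3 (0.95), Nus1 (0.93), Alg12 (0.93) and Zfp423 (0.92). For Slc1a2 they were Cfi (0.94), Sqle (0.93), Slc25a48 (0.92), Ankrd17 (0.92) and Atp6ap2 (0.92). For Slc1a3 they were Wbp1 (0.94), Ccdc77 (0.94), Spart (0.93), Mcu (0.93) and Pnrc2 (0.92). None of these 15 probe sets passed the rank products. With 10 arrays and this many probe sets, correlations of this size are descriptions.

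Lists of neighbouring genes of nitrogen metabolism are read against the array. There, 123 of 14217 genes (0.865%) had a down-regulated probe set and 47 an up-regulated one. In a list of this size a count of 0 is near the array's own rate. A count of 1 lies above that rate but rests on 1 gene, and no list was tested as a set. Among the enzymes and carriers that supply the cycle (Nags, Slc25a15, Glud1 and others), 0 of 12 measured passed, with a median log2 fold change of 0.02. They ran from -0.27 (SE 0.118) for Car5a, the mitochondrial carbonic anhydrase, to 0.21 (SE 0.158) for Got1. Of the other carriers of glutamine, glutamate and cationic amino acids, 0 of 13 passed, with a median of 0.01. They ran from -0.20 (SE 0.124) for Slc38a2 to 0.21 (SE 0.211) for Slc7a11. Of the ornithine, proline, arginine and polyamine enzymes, 0 of 15 passed (median 0.06), from -0.16 (SE 0.086) for Prodh to 0.20 (SE 0.090) for Aldh4a1.

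Among enzymes that use glutamine, 1 of 8 passed, which was Asns, the asparagine synthetase. Asns averaged 7.24 ± 1.51 in the iron-deficient group and 7.40 ± 0.85 in the pair-fed group (SD, n = 5 each), with an FDR of 0.0200 and a log2 fold change of -0.16 (SE 0.625). Its values ran from 6.04 to 9.54 in iron-deficient livers and from 6.55 to 8.70 in pair-fed livers (exact permutation p = 0.849). Asns was down-regulated in 5 of 10 fits that left out 1 rat. The median of this list was -0.13, from -0.27 for Ctps2 to 0.10 for Pfas.

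Glul is a pericentral gene, and the markers of both lobule ends were read beside it. Of the pericentral markers 1 of 10 passed, Cyp7a1, the rate-limiting enzyme of bile acid synthesis. It averaged 9.30 ± 0.92 in the iron-deficient group and 10.24 ± 0.43 in the pair-fed group (SD, n = 5 each). Its change of -0.95 (SE 0.369) on the log2 scale passed at an FDR of 0.000769, with an exact permutation p = 0.0556. The median of that list was -0.02, and Nkd1 was its highest at 0.11 (SE 0.093). Of the periportal markers 1 of 9 passed, Sds, the serine dehydratase, which was up-regulated. Its log2 fold change was 0.30 (SE 0.45), with an FDR of 0.0405 and an exact permutation p = 0.579. Sds passed in 5 of 10 fits that left out 1 rat. The median of that list was 0.11, from -0.20 (SE 0.110) for Hal to 0.43 (SE 0.271) for Hsd17b6.

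**Figure D3:**
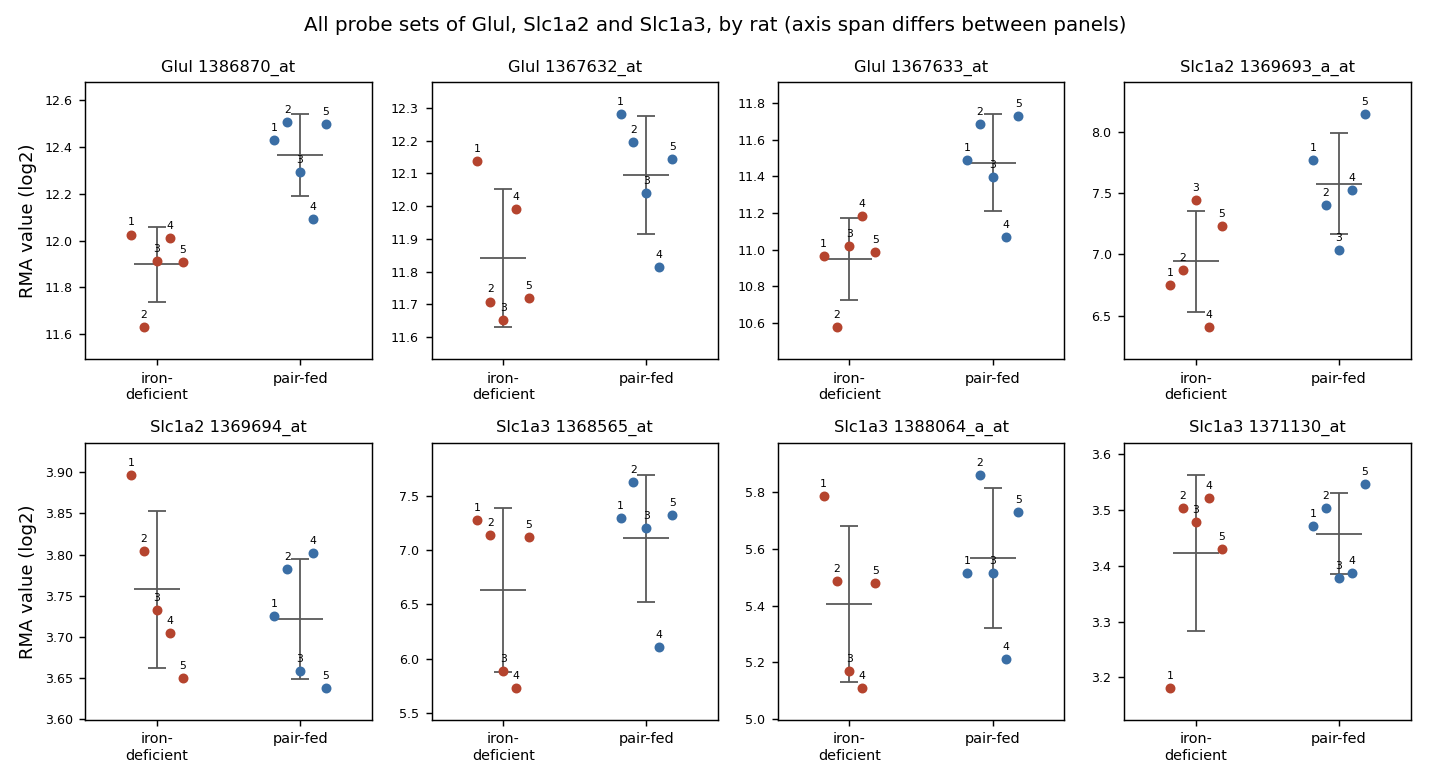
Log2 RMA signal in each rat for the probe sets of Glul, Slc1a2 and Slc1a3, with iron-deficient rats left of pair-fed rats, and the mean and SD (n = 5) as bars. Glul 1386870_at is the 1 probe set in which the groups did not overlap.

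Whether a member passed depended on single rats. Without rat 5 of the pair-fed group 0 of the 17 probe sets passed, and without rat 2 of the pair-fed group only Slc1a2 did. Glul 1386870_at passed in 5 of 10 fits that left out 1 rat and Glul 1367633_at in 7. Slc1a2 passed in 9 and Slc1a3 in 4. Their log2 fold changes held their sign in every such fit, from -0.54 to -0.40 for Glul 1386870_at, -0.63 to -0.43 for Glul 1367633_at, -0.77 to -0.49 for Slc1a2 and -0.73 to -0.25 for Slc1a3.

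**Figure D4:**
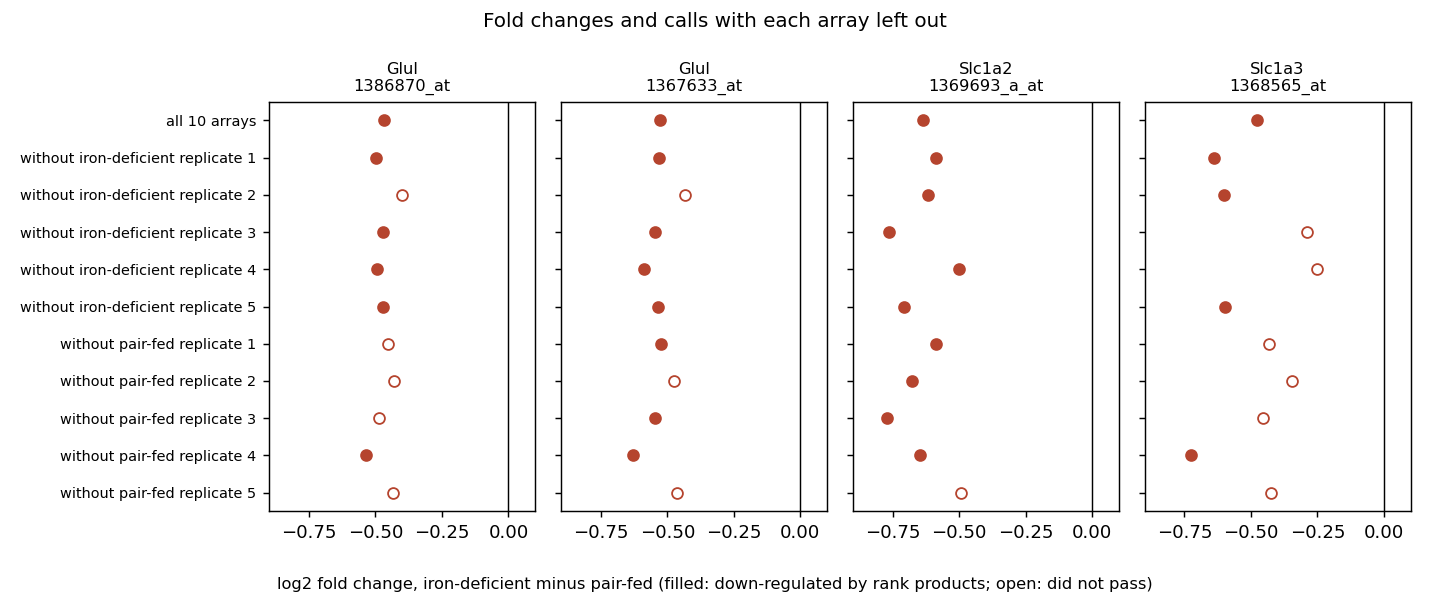
Log2 fold change (iron-deficient minus pair-fed) of the 4 down-regulated probe sets over all 10 arrays and when 1 array was left out. Filled points passed the rank products and open points did not, and every point lies below 0.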

How the data were processed

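Liver RNA of 10 rats was measured on 1 array each. The values deposited by the authors are log2 signals of the robust multiarray average (RMA), and 0 columns were left out. Tests used 31042 probe sets, without 57 controls. The platform annotation pairs 20826 with 1 gene, 436 with several and 9780 with none. RMA puts all arrays on 1 distribution, so that only relative changes are seen, and the number of arrays limits the precision.

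Rank products, the test of the study, were computed in Python 3.11.15 with 100 permutations of the values within each array and an FDR threshold of 0.05. Log2 fold changes, SE, intervals and adjusted p-values (Benjamini-Hochberg over all probe sets) came from limma 3.58.1 in R 4.3.3. Exact permutation tests (2-sided) compared the group means of single probe sets and of the 3' minus 5' differences. Pairs of members were tested by 14400 permutations within groups. The rank products and the limma fit were tested on simulated data. The brightest probe set stands for a gene. The named genes are all probe sets of the members, listed genes that passed, the extremes of each pathway list and the 5 probe sets most like each down-regulated member. The members and lists were chosen with earlier results of these data known. Promoter sequences and gene positions are from RefSeq (GRCr8). Alternatives were the rank sum, limma, dim probe sets left out (mean under 6), arrays centred, the replicate block, means over probe sets, group medians, and each rat left out. SD ratios without each rat were added after the data were seen.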

Additional observations from a re-analysis of the deposited data

Results flagged for a closer look

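In 3 of 34 groups of 5 rats, 1 rat lay far from the others of its group, and chance gives about 1 in 20. Cps1 (1384334_at) read 13.79 in pair-fed rat 5, against 13.91 to 13.95 in the other pair-fed rats. Slc1a3 (1368565_at) read 6.11 in pair-fed rat 4, against 7.20 to 7.62 in the other pair-fed rats. Slc1a3 (1371130_at), a dim probe set, read 3.18 in iron-deficient rat 1, against 3.43 to 3.52 in the other iron-deficient rats.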

How the results depend on the processing

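The array had 174 down-regulated and 87 up-regulated probe sets. These were 31 and 3 by rank sum, 0 and 0 by limma (2168 at an unadjusted p under 0.05), and 108 and 57 with dim probe sets left out. Leaving out 1 rat gave 84 to 187 and 47 to 95. Down-regulated probe sets were 84 without pair-fed rat 2, 94 without pair-fed rat 5, 101 without pair-fed rat 3 and 115 without iron-deficient rat 5, and up-regulated ones 47 without iron-deficient rat 2 and 57 without iron-deficient rat 3. Of the members, 4 probe sets and 3 genes were down-regulated. The rank sum gave 1 and 1 (Glul 1386870_at), limma 0 and 0, dim probe sets left out 3 and 2 (without Slc1a3), and the mean over the probe sets of a gene 1 gene (Glul, FDR 0.0399). Leaving out 1 rat gave 0 to 4 probe sets and 0 to 3 genes, with 0 without pair-fed rat 5, 1 without pair-fed rat 2, and 2 without iron-deficient rat 2, pair-fed rat 1 or pair-fed rat 3. With the replicate block 150 and 79 probe sets of the array and 3 probe sets and 2 genes of the members passed, without Slc1a3. Rats of the same number did not deviate together (r from -0.04 to 0.09). These correlations cannot decide whether the numbers pair the rats, because a pairing could act on single genes only. The titles do not say. Of 204 member log2 fold changes with the arrays centred, with the block or with 1 rat left out, 174 kept direction and call, 16 kept the direction only and 14 reversed. Centring could not change a call, because it shifts all differences between 2 arrays alike. The block could not change a direction, because it leaves the difference of the means as it is. All of the 16 were lost calls of the 4 down-regulated probe sets, and the other 13 probe sets had no call to lose. The reversals fell on 5 probe sets, none of which had passed, each when 1 rat was left out: Cps1 1384334_at (-0.0061 to 0.052), Asl 1368916_at (-0.078 to 0.16), Asl 1367754_s_at (-0.14 to 0.13), Oat (-0.089 to 0.35) and Slc1a3 1371130_at (-0.059 to 0.026). Group medians in place of means turned the sign of 2 of 17 probe sets, Asl 1367754_s_at (0.14, against -0.03) and Slc1a3 1371130_at (0.0063, against -0.03). By medians the difference was 0.44 for Oat (against 0.07), -0.17 for Slc1a3 1368565_at (against -0.48), -0.43 for Glul 1367632_at (against -0.25), 0.19 for Ass1 (against 0.08) and 0.12 for Asl 1368916_at (against 0.02). The causes were not tested. With 5 rats a group and no block, the intervals of Oat and Slc1a3 hold changes in both directions. The dim probe sets of Slc1a2 and Slc1a3 lie near the floor of the array.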
